A study of Homo sapiens with 12 samples.

Results

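The genes described here encode the subunits of the proteasome, its activators and inhibitor, and the factors that help to assemble it. They are 48 of the 38716 gene symbols in the tables, found there by their names. Ribosome-protected fragments (RPF, from Ribo-seq) and mRNA (from RNA-seq) were measured in IMR90, a normal lung fibroblast line of human origin. Cells were lysed either while proliferating (Pro) or after they had been passaged to the end of their divisions, the state of replicative senescence (Sen). With 3 lysates a state and both library types made from each, 12 libraries formed 4 groups of 3. Both states were treated with cycloheximide at harvest, which holds ribosomes on the mRNA. The cultures derive from a pair of isolates, I90-10 and I90-79, and the labels do not say which lysate came from which, so isolate and state cannot be told apart. The question asked of these genes was how far their mRNA, their RPF and the ratio of both, the translational efficiency (TE), differed between the states.

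The proteasome degrades proteins that carry ubiquitin chains. Its 20S core is a barrel of stacked rings, with alpha subunits (PSMA genes) at both ends that gate the entry and beta subunits (PSMB genes) in the middle, of which PSMB5, PSMB6 and PSMB7 carry the active sites. In cells exposed to interferon these catalytic subunits can be replaced by PSMB8, PSMB9 and PSMB10, which form the immunoproteasome and favour peptides suited to presentation on class I molecules. The 19S cap binds ubiquitinated substrates (PSMD4 and ADRM1), removes the ubiquitin (PSMD14, in the lid) and unfolds the substrate with a ring of ATPases (PSMC genes). PSME1 and PSME2 (PA28 alpha and beta), PSME3 (PA28 gamma) and PSME4 (PA200) are alternative caps, and PSMF1 is an inhibitor. POMP and the PSMG proteins assist assembly of the core, whereas PSMD5, PSMD9 and PSMD10 assist assembly of the base of the cap.

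Promoter windows, from 250 bases before to 50 bases after the RefSeq start, were given for 42 of the 48 members. The windows of PSMA7, PSMB1, PSMB6, PSMB7, PSMD4 and PSMG3 were not analysed here. Windows were searched on both strands for short motifs known from proteasome and interferon-induced genes, and no match of one motif overlapped a match of another. The core of the interferon-stimulated response element (GAAA, then any 2 bases, then GAAA) was found in 6 of 42 member windows (14.3%) and in 3.65% of all 27305 windows. The same 10 letters, GAAAGCGAAA, occurred in the windows of PSMB10, PSME2 and PSMG4 and, on the other strand, of PSME1, in each case close to the start. These windows are shown because the same letters recur in members of the immunoproteasome, PA28 and the assembly factors. Capitals mark the match, and sequences are read from RefSeq windows placed on GRCh37 in the direction of the gene.
PSMB10: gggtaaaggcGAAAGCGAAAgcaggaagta
PSME2: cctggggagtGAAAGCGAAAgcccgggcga
PSME1: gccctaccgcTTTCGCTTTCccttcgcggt
PSMG4: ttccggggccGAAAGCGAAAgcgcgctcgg

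They lie at chr16:67970755-67970784 on the minus strand (PSMB10), chr14:24615828-24615857 on the minus strand (PSME2), chr14:24605398-24605427 on the plus strand (PSME1) and chr6:3259138-3259167 on the plus strand (PSMG4). PSMB8 and PSMB9 had windows without this match.

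TGACNNNGC, the core of the antioxidant response element that NFE2L1 and NFE2L2 can bind, was found in 14 of 42 member windows (33.3%) and in 13.6% of all windows. None of the 6 alpha ring windows held it. The members with a match went in both directions at the mRNA level, with 3 higher in senescent cells (ADRM1, PSMD9, PSME4), 6 lower (PSMB9, PSMD1, PSME1, PSME2, PSMG1, PSMG2) and 5 not past the threshold. Examples of both directions are shown, with the match in capitals.
PSME4: cccggcggctGCAGCGTCAccagcagagcc
PSMB9: gggcggggctGCCTCGTCActtgtctcggg
PSMG1: gcccagggcaTGACAGCGCgggcgggcggt

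In GRCh37 they are at chr2:54198145-54198174 on the minus strand (PSME4), chr6:32821811-32821840 on the plus strand (PSMB9) and chr21:40555541-40555570 on the minus strand (PSMG1). In PSME4 and PSMB9 the match reads on the strand opposite to the gene. The CCAAT box was present in 19 of 42 member windows (45.2%) against 35.7% of all windows, and TTCNNNGAA, the core of the gamma-activated site, in 4 of 42 (9.52%) against 7.88%. A match is a string of letters and was not tested as a binding site.

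Depth in RNA-seq ranged over 7902427 to 14144455 reads per library, and every member had at least 56 reads in each. Ribo-seq libraries were uneven, with 54421 coding sequence (CDS) reads in Pro 1 and 54708 in Sen 2 against 583798 to 1718521 in the other 4. At least 10 RPF counts were found for 25 members in Pro 1 and 23 in Sen 2, and for 44 to 48 members in the other libraries. Levels are given as CPM (counts scaled to library size by TMM factors within a library type, the usual edgeR unit). A floor of 3 RPF counts is worth 52.1 CPM for Pro 1, 52.7 CPM for Sen 2, and between 1.79 and 5.83 CPM for the others. Floors cover counting error only. Because the edgeR fit weighs libraries by their depth, an RPF fold change can differ from the ratio of the plain means of 3. Fibroblast markers were present, with 8 of 8 detected and their summed mRNA CPM between 28239 and 31759 (Pro) and between 26721 and 29966 (Sen). Leukocyte markers summed to between 19.1 and 21 CPM (Pro) and between 31.2 and 34.3 CPM (Sen). Nearly all of this was CD68, a protein of lysosomes, and no coding read was listed for CD3E or HLA-DRA. Epithelial markers, mostly KRT18, summed to between 293 and 312 CPM (Pro) and between 237 and 261 CPM (Sen), and those of endothelium to at most 1.03 CPM. What part these other markers have in the results was not tested.

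At the mRNA level, 27 of 48 members changed, 7 higher and 20 lower in senescent cells (edgeR quasi-likelihood test, Benjamini-Hochberg adjusted p under 0.15). That share of 56.2% compares with 73.6% called among all 12787 genes tested, of which 36.6% were higher and 37.0% lower. Changes of members were small, with a median absolute log2 fold change of 0.15 against 0.39 over all genes, and a median log2 fold change of -0.05. PSMD2, a scaffold subunit of the cap, had the highest mRNA fold change (log2 0.51), and PSMB9 of the immunoproteasome had the lowest (log2 -1.46). The mRNA values of the states did not overlap for 26 members, 8 of them higher and 18 lower in Sen, against 67.8% of all genes. In bulk lysates, fewer cells with a transcript and less of it per cell cannot be told apart.

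In RPF, 46 members had enough reads to be tested (all but PSMG3 and PSMG4), and 24 of them changed, 5 higher and 19 lower in senescent cells by the same test. This is 52.2%, against 54.4% of all 7521 genes tested (27.5% higher and 26.9% lower). The median log2 fold change of members was -0.24. The states did not overlap for 1 member that was higher (PSMD2) and 12 that were lower, which together compares with 32.5% of all genes. In TE, 8 of 46 members passed the threshold, 2 higher (PSMC3 and ADRM1) and 6 lower (PSMA1, PSMA2, PSMD12, PSME4, PSMG1 and POMP), which is 17.4% against 9.37% of all 7473 genes tested (4.88% higher and 4.48% lower). TE values did not overlap for 2 members that were higher and 7 that were lower in Sen, against 7.64% and 8.59% of all genes, or 16.2% in all. When factors were left out and only library totals used, 3 members were higher and 25 lower in mRNA, and 3 higher and 27 lower in RPF. That scaling shifts the median of all genes to -0.11 in mRNA and -0.14 in RPF.

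**Figure D1:**
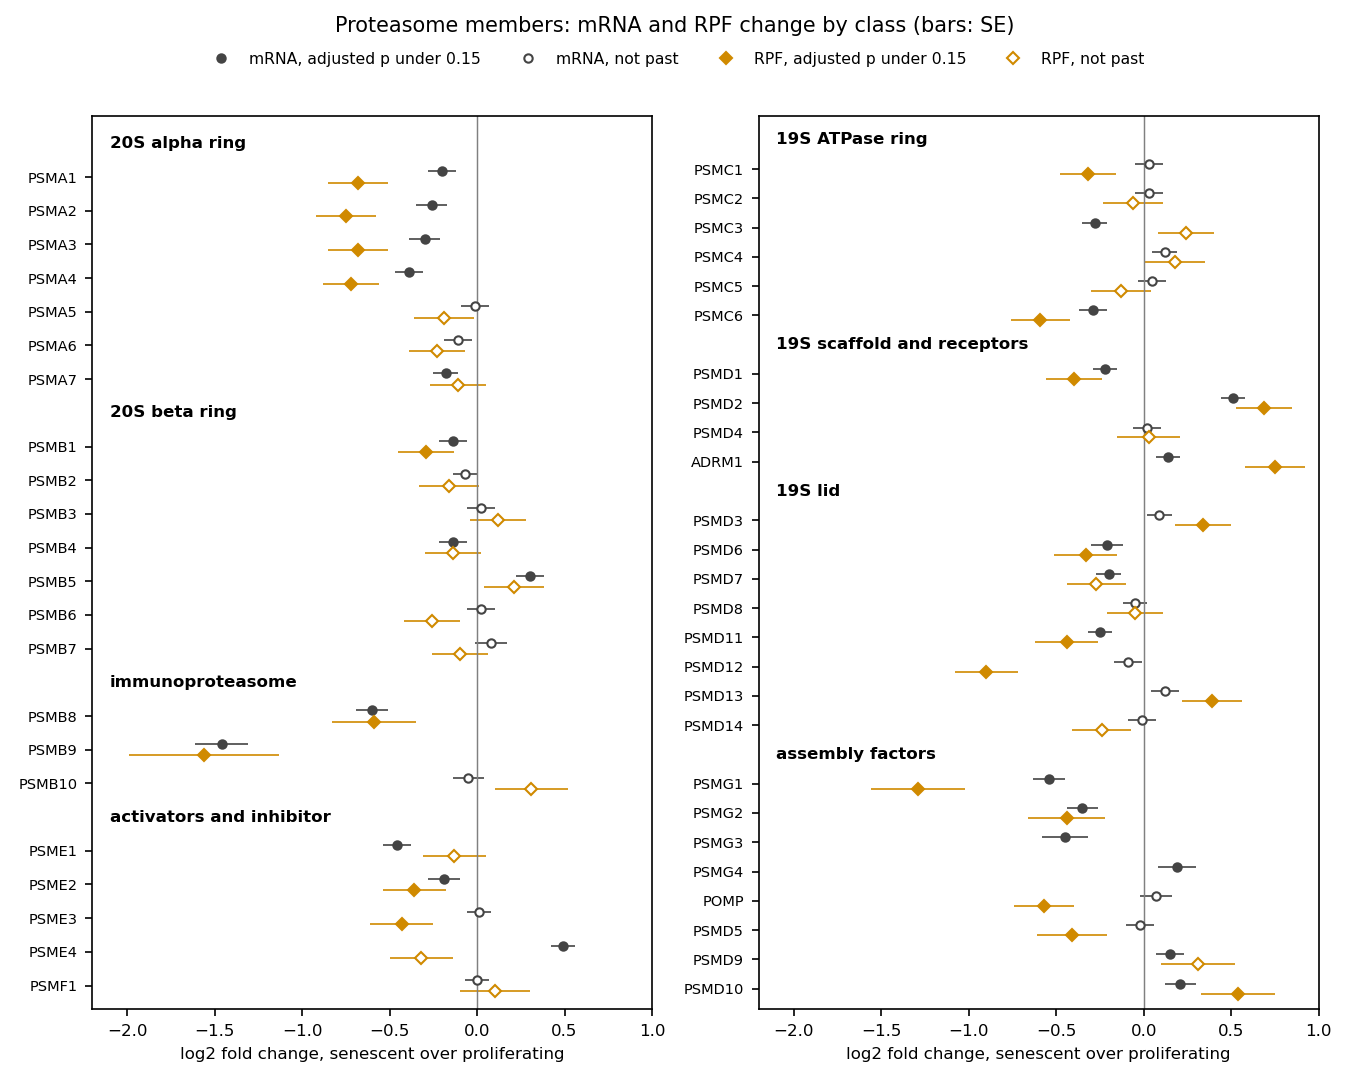
Log2 fold change of senescent over proliferating cells (x axis) for the 48 members, grouped by class (y axis), in mRNA (circles) and RPF (diamonds), with the SE as bars; filled symbols passed an adjusted p of 0.15 and open ones did not. PSMA1 to PSMA4 lie left of zero in both measures, with RPF from -0.75 to -0.68, whereas PSMD2 and ADRM1 lie to the right and PSMB9 is farthest to the left.

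Signs of the fold change were the same in mRNA and RPF for 35 of the 46 members tested in both. A change was called in both for 17 members and went the same way in all 17, while 8 changed in mRNA only, 7 in RPF only, and 14 in neither. Of the 17 members called in both, TE did not pass the threshold for 13 (28.3% of those tested, against 41.8% of all genes tested), and for 6 members (PSMA1, PSMA2, ADRM1, PSMD12, PSMG1 and POMP) RPF changed with TE, whether or not mRNA did (13% against 7.19%). In a further 2 members, PSMC3 and PSME4, mRNA and TE changed in opposite directions and RPF did not pass the threshold (4.35% against 1.65%).

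In the alpha ring of the core, all 7 members had a negative fold change in mRNA and in RPF. The mRNA of 5 fell (PSMA1, PSMA2, PSMA3, PSMA4 and PSMA7), with log2 fold changes from -0.39 to -0.18, and the RPF of 4 fell (PSMA1 to PSMA4) by 0.68 to 0.75 on the log2 scale. The shares called, 71.4% in mRNA and 57.1% in RPF, were near the 73.6% and 54.4% of all genes tested. Of all genes, 37.0% were called lower in mRNA and 26.9% in RPF. The class medians were -0.20 in mRNA and -0.68 in RPF. PSMA4 had 139, 143 and 130 CPM of mRNA in Pro 1, 2 and 3, and 108, 118 and 90.3 CPM in Sen 1, 2 and 3. In RPF it had 226, 332 and 363 CPM in Pro and 220, 211 and 181 CPM in Sen. Neither measure overlapped between the states, and the log2 fold changes were -0.39 ± 0.08 (SE) in mRNA and -0.72 ± 0.16 in RPF, with edgeR adjusted p of 0.000413 and 0.000223. PSMA5 differed least in mRNA, with 116, 111 and 109 CPM in Pro and 110, 125 and 97.3 CPM in Sen, which overlap (log2 -0.01 ± 0.08, edgeR adjusted p = 0.943). Its RPF level, 226, 324 and 246 CPM in Pro and 236, 299 and 237 CPM in Sen, overlapped as well.

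TE fell for PSMA1 and PSMA2 of the same ring. PSMA1 had RPF levels of 243, 285 and 264 CPM in Pro and 163, 193 and 173 CPM in Sen, and mRNA levels of 144, 142 and 135 CPM against 123, 133 and 108 CPM. Its TE, the log2 ratio of RPF to mRNA, was 0.81, 1.01 and 0.97 in Pro and 0.41, 0.60 and 0.68 in Sen. All 3 proliferating lysates lay above all senescent ones (TE change -0.45 ± 0.18, edgeR adjusted p = 0.14). PSMA2 had 139, 329 and 280 CPM of RPF in Pro and 180, 176 and 159 CPM in Sen. The low value of Pro 1 rests on 8 reads, and it is why the states overlap in RPF and in TE. The mRNA of PSMA2 was 141, 124 and 122 CPM in Pro and 109, 120 and 93.7 CPM in Sen. Its TE was 0.06, 1.41 and 1.20 in Pro and 0.73, 0.62 and 0.77 in Sen (change -0.48 ± 0.18, edgeR adjusted p = 0.129). Both TE calls were lost without Pro 2, Pro 3, Sen 1, Sen 2 or Sen 3. They were also lost with DESeq2, with the filter of at least 1 read, and with TMM factors over genes kept in both library types. The RPF calls of PSMA1 and PSMA4 held under every alternative run. That of PSMA2 held wherever it was tested, which the filter of at least 10 counts in every library did not allow.

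Constitutive beta ring subunits did not share this pattern. PSMB5 rose in mRNA, PSMB1 and PSMB4 fell, and in RPF 1 of 7 fell (PSMB1, a call lost when any lysate but Pro 1 was left out). The mRNA change of PSMB1 (log2 -0.14, edgeR adjusted p = 0.133) was -0.09 without Pro 1 and -0.07 without Sen 3, and its call was lost in both cases and with DESeq2. The shares called in the ring, 42.9% in mRNA and 14.3% in RPF, compare with 73.6% and 54.4% of all genes tested. No beta ring member changed in TE at the threshold, which 9.37% of all genes tested passed. PSMB5, the chymotrypsin-like subunit, had 190, 187 and 180 CPM of mRNA in Pro and 249, 236 and 199 CPM in Sen, without overlap (log2 0.30 ± 0.08, edgeR adjusted p = 0.00246). RPF levels were 573, 389 and 318 CPM in Pro and 473, 246 and 420 CPM in Sen, which overlapped broadly (log2 0.21 ± 0.17, edgeR adjusted p = 0.329). Without the lysates of the 2 shallow Ribo-seq libraries the RPF change of PSMB5 was 0.37 ± 0.13 (edgeR adjusted p = 0.0261). PSMB4, a non-catalytic subunit with the lowest mRNA fold change of the ring, had 215, 222 and 211 CPM of mRNA in Pro and 205, 209 and 173 CPM in Sen (log2 -0.14 ± 0.08, edgeR adjusted p = 0.103). The call was lost without Pro 2 and without Sen 3. Ribo-seq gave it RPF levels of 312, 493 and 463 CPM in Pro and 443, 492 and 362 CPM in Sen, with overlap.

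PSMB6, the caspase-like subunit, had mRNA levels of 134, 126 and 122 CPM in Pro and 133, 137 and 117 CPM in Sen. Its RPF level was 243, 273 and 238 CPM in Pro and 211, 229 and 208 CPM in Sen. The RPF values did not overlap, but the change missed the threshold (log2 -0.26 ± 0.16, edgeR adjusted p = 0.202). For PSMB7, the trypsin-like subunit, mRNA was 162, 157 and 139 CPM in Pro and 174, 171 and 137 CPM in Sen. RPF of this gene was 278, 301 and 249 CPM against 273, 211 and 233 CPM, and the states overlapped in both measures.

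Immunoproteasome subunits were lower in senescent cells for PSMB8 and PSMB9 but not for PSMB10. PSMB8 (chr6:32808494-32812456), the counterpart of PSMB5, had 33.7, 34 and 33.7 CPM of mRNA in Pro and 22.6, 23.3 and 21 CPM in Sen. The states were well apart, and the fold change was -0.60 ± 0.09 on the log2 scale (edgeR adjusted p = 4e-06). RPF levels were 34.7, 63.8 and 63.2 CPM in Pro and 40.2, 35.2 and 44.7 CPM in Sen (log2 -0.59 ± 0.24, edgeR adjusted p = 0.0434). Pro 1 overlapped with Sen there, but it and Sen 2 rest on 2 reads each, below the floor, and the RPF call was lost with DESeq2, the replicate block, and without Pro 3 or Sen 1.

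PSMB9 (chr6:32811913-32827628), the counterpart of PSMB6, showed the steepest fall of all members. It had 19.4, 14.2 and 14.8 CPM of mRNA in Pro and 6.38, 5.94 and 5.12 CPM in Sen (log2 -1.46 ± 0.15, edgeR adjusted p = 1.3e-08). In RPF it had 34.7, 16.3 and 23.8 CPM in Pro and 6.7, 0 and 9.72 CPM in Sen, from 2, 11 and 40 reads and from 10, 0 and 5 reads (log2 -1.56 ± 0.43, edgeR adjusted p = 0.00244). The states did not overlap in either measure, although Sen 2 at 0 reads allows a level of up to 52.7 CPM. Its RPF call was lost with DESeq2 and without Sen 1. PSMB9 was not tested in RPF without Pro 3 or under the filter of at least 10 counts in every library. TE of PSMB9 differed by -0.27 ± 0.50 (edgeR adjusted p = 0.812).

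PSMB10 (chr16:67968409-67970767), the counterpart of PSMB7, had 31.4, 32.4 and 29.5 CPM of mRNA in Pro and 27.8, 33.3 and 28.5 CPM in Sen, with overlap (log2 -0.05 ± 0.09, edgeR adjusted p = 0.653). Ribo-seq gave it RPF levels of 104, 84.6 and 55.4 CPM in Pro and 93.8, 52.7 and 66.1 CPM in Sen, also with overlap (log2 0.31 ± 0.21, edgeR adjusted p = 0.237). PSMB8, PSMB9 and PSMB10 together took 13 to 13.9% of the summed catalytic subunits in proliferating cells and 8.31 to 9.44% in senescent ones, in RNA-seq CDS reads per coding length. In RPF per coding length the same share was 13.7 to 14.8% in Pro and 10.8 to 12.4% in Sen. Neither range overlapped between the states, and no test was run on these shares. The RPF shares of Pro 1 and Sen 2 rest on few reads of PSMB8, PSMB9 and PSMB10, namely 2, 2 and 6 in Pro 1 and 2, 0 and 3 in Sen 2, and the lowest share is that of Sen 2.

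**Figure D2:**
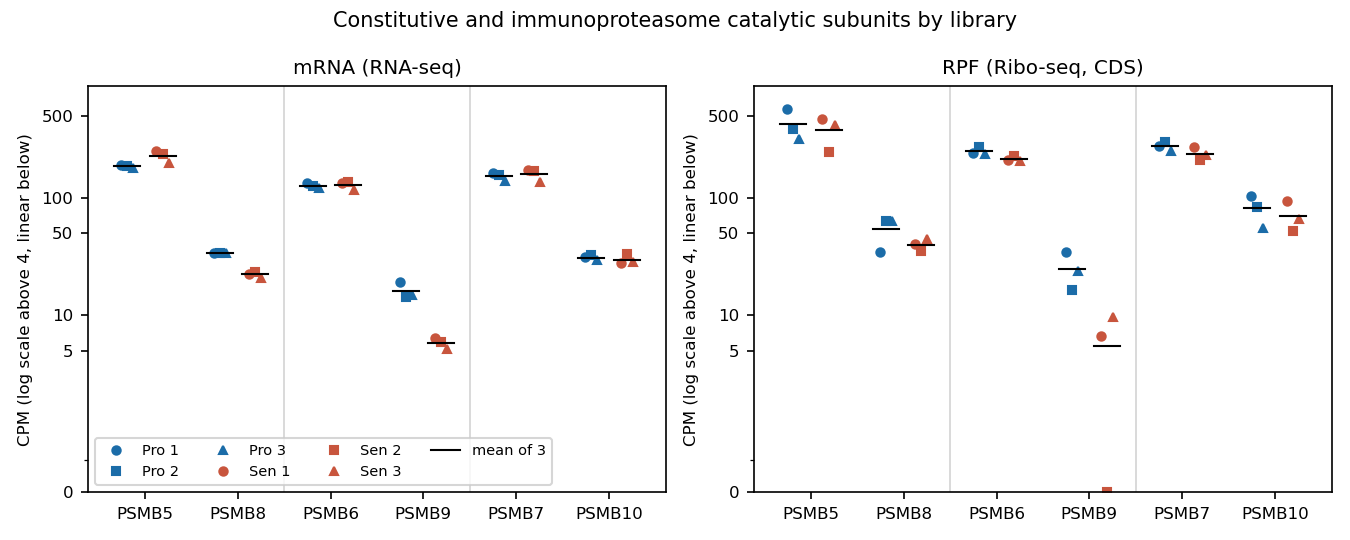
CPM (y axis, log scale above 4 and linear below) of the catalytic subunits, each constitutive subunit next to its immunoproteasome counterpart (x axis), in mRNA (left) and RPF (right). Symbols are single libraries and lines are means of 3; PSMB8 and PSMB9 mRNA is lower in all 3 Sen libraries than in any Pro library, and PSMB10 overlaps.

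The 19S cap moved in both directions. Of its 18 members 2 rose and 6 fell in mRNA, and 4 rose and 6 fell in RPF. The share called was 44.4% in mRNA and 55.6% in RPF, against 73.6% and 54.4% of all genes tested. Among the 6 ATPases, PSMC3 and PSMC6 fell in mRNA, and PSMC1 and PSMC6 fell in RPF. PSMC6, with the lowest mRNA fold change of the ring, had 73.6, 67.3 and 70.7 CPM of mRNA in Pro and 57.1, 63.1 and 52.6 CPM in Sen (log2 -0.29 ± 0.08, edgeR adjusted p = 0.00366). Its RPF level was 156, 224 and 191 CPM in Pro and 137, 105 and 132 CPM in Sen (log2 -0.59 ± 0.17, edgeR adjusted p = 0.0037). Neither measure overlapped between the states, and its RPF call was lost with DESeq2 alone. The RPF call of PSMC1 was lost without Pro 2, Pro 3, Sen 1 or Sen 3. PSMC4, at the other end of the ring, had 104, 92.9 and 92 CPM of mRNA in Pro and 107, 104 and 103 CPM in Sen (log2 0.12 ± 0.07, edgeR adjusted p = 0.166). RPF of this gene was 347, 184 and 184 CPM against 236, 193 and 200 CPM, where Pro 1 lay far above the other proliferating libraries.

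PSMC3 fell in mRNA without a fall in RPF. Its mRNA level was 171, 167 and 157 CPM in Pro and 137, 142 and 129 CPM in Sen, without overlap (log2 -0.28 ± 0.07, edgeR adjusted p = 0.00158). The RPF level was 312, 249 and 250 CPM in Pro and 332, 211 and 274 CPM in Sen (log2 0.24 ± 0.16, edgeR adjusted p = 0.24). TE was 0.90, 0.58 and 0.68 in Pro and 1.28, 0.63 and 1.09 in Sen, where Sen 2 overlapped with Pro (change 0.50 ± 0.17, edgeR adjusted p = 0.0904). The TE call was lost with DESeq2, with the weaker filter of at least 1 read, and without Pro 2, Pro 3, Sen 1 or Sen 3.

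Scaffold and receptor subunits held the highest RPF fold changes, those of ADRM1 and PSMD2, with that of PSMD10 next and within the SE. PSMD2 (chr3:184016986-184026838), a scaffold to which shuttle factors bring ubiquitinated substrates, had 495.4, 470.9 and 479.5 CPM of mRNA in Pro and 726.7, 665.5 and 667.2 CPM in Sen. In RPF it had 590, 576 and 585 CPM in Pro and 945, 844 and 978 CPM in Sen. The states were apart in both, in the shallow libraries too, with log2 fold changes of 0.51 ± 0.07 and 0.69 ± 0.16 (edgeR adjusted p = 1.53e-06 and 0.000348). These calls held under every alternative. PSMD1, the second scaffold subunit, went the other way, with mRNA levels of 154, 157 and 155 CPM in Pro and 134, 143 and 124 CPM in Sen (log2 -0.22 ± 0.07, edgeR adjusted p = 0.0116). RPF levels were 295, 367 and 345 CPM in Pro and 240, 246 and 303 CPM in Sen, with Sen 3 just above Pro 1 (log2 -0.40 ± 0.16, edgeR adjusted p = 0.0383), and this RPF call was lost without Pro 2, Pro 3 or Sen 1. PSMD4 passed no threshold (log2 0.02 ± 0.08 in mRNA and 0.03 ± 0.18 in RPF).

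ADRM1 (chr20:60877149-60883918), a ubiquitin receptor also called RPN13, had a small rise in mRNA and passed the threshold in RPF and TE too. It had 131, 134 and 125 CPM of mRNA in Pro and 141, 142 and 147 CPM in Sen (log2 0.14 ± 0.07, edgeR adjusted p = 0.0782). This mRNA call was lost without Pro 3 or Sen 3 (log2 0.11 in either case) and with library totals (log2 0.04). The RPF level was 330, 157 and 176 CPM in Pro and 288, 264 and 325 CPM in Sen. Pro 1, from 19 reads, lay above all Sen libraries, while the deeper Pro 2 and Pro 3 lay below them (log2 0.75 ± 0.17, edgeR adjusted p = 0.000206), and the RPF call was lost with DESeq2 alone. TE was 1.37, 0.24 and 0.50 in Pro and 1.03, 0.94 and 1.15 in Sen, with a change of 0.59 ± 0.18 (edgeR adjusted p = 0.0493). Without the 2 shallow lysates the TE change was 0.69 ± 0.15 (edgeR adjusted p = 0.013). With DESeq2 or without Pro 2, Pro 3, Sen 1 or Sen 3 the TE change did not pass.

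In the lid, 3 of 8 members fell in mRNA (PSMD6, PSMD7 and PSMD11). Its called share was 37.5% in mRNA and 62.5% in RPF, against 73.6% and 54.4% of all genes tested. For PSMD6 the mRNA change was -0.21 on the log2 scale and -0.12 without Pro 1, where the call was lost (edgeR adjusted p = 0.237). In RPF 3 fell (PSMD6, PSMD11 and PSMD12) and 2 rose (PSMD3 by 0.34 ± 0.16 and PSMD13 by 0.39 ± 0.17 on the log2 scale). PSMD11, which stabilises the joint between lid and base, had 122, 113 and 116 CPM of mRNA in Pro and 102, 101 and 91.2 CPM in Sen (log2 -0.25 ± 0.07, edgeR adjusted p = 0.00458). Ribo-seq gave it RPF levels of 104, 168 and 215 CPM in Pro and 158, 105 and 113 CPM in Sen, with overlap. PSMD13, with the highest mRNA fold change of the lid, had 131, 129 and 126 CPM of mRNA in Pro and 143, 154 and 123 CPM in Sen, and the change did not pass (log2 0.12 ± 0.08, edgeR adjusted p = 0.198). The RPF level of PSMD13 was 156, 202 and 183 CPM in Pro and 249, 158 and 262 CPM in Sen. RPF calls in the lid other than that of PSMD12 were lost when single lysates were left out, Sen 3 in each case and Pro 3 as well. PSMD14, the deubiquitinase of the lid, passed no threshold.

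PSMD12 (chr17:65334032-65362721), a structural lid subunit, fell in RPF, while its mRNA did not pass the threshold. Its mRNA level was 63.2, 59.5 and 71.3 CPM in Pro and 61.1, 65.5 and 55.5 CPM in Sen, which overlapped (log2 -0.09 ± 0.08, edgeR adjusted p = 0.365). Its RPF level was 139, 203 and 187 CPM in Pro and 107, 105 and 91.4 CPM in Sen, all of them below Pro (log2 -0.90 ± 0.18, edgeR adjusted p = 2.08e-05). TE was 1.22, 1.78 and 1.39 in Pro and 0.81, 0.80 and 0.73 in Sen, without overlap (change -0.75 ± 0.19, edgeR adjusted p = 0.0145). The RPF call held under every alternative in which PSMD12 was tested, that is all but the filter of at least 10 counts in every library. The TE call was lost with DESeq2, without Pro 2 and without Sen 1.

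Activators showed mixed directions. PSME1 (chr14:24605372-24608176) had 100, 91 and 90.2 CPM of mRNA in Pro and 63.6, 76.7 and 63.1 CPM in Sen, without overlap (log2 -0.46 ± 0.08, edgeR adjusted p = 4.77e-05). RPF of this gene was 156, 169 and 136 CPM in Pro and 123, 158 and 156 CPM in Sen, which overlapped (log2 -0.13 ± 0.18, edgeR adjusted p = 0.564). TE of PSME1 was higher in all 3 Sen lysates (0.96, 1.12 and 1.31) than in Pro (0.72, 0.90 and 0.59), but did not pass (change 0.37 ± 0.19, edgeR adjusted p = 0.274). PSME2, its partner in the PA28 ring, had 97.4, 83.4 and 79.6 CPM of mRNA in Pro and 69.9, 88.6 and 68.6 CPM in Sen (log2 -0.19 ± 0.09, edgeR adjusted p = 0.0876). RPF levels were 52.1, 163 and 162 CPM in Pro and 129, 176 and 101 CPM in Sen (log2 -0.36 ± 0.18, edgeR adjusted p = 0.106). Both measures overlapped, and Pro 1 rests on 3 reads. Its mRNA call was lost without Pro 1, Sen 1 or Sen 3, and its RPF call without Pro 2, Pro 3, Sen 1 or Sen 3.

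PSME3, the nuclear activator, had 173, 167 and 160 CPM of mRNA in Pro and 169, 169 and 165 CPM in Sen (log2 0.01 ± 0.07, edgeR adjusted p = 0.901). Ribo-seq gave it RPF levels of 156, 153 and 132 CPM in Pro and 114, 141 and 81.7 CPM in Sen, where only Sen 2 reached the range of Pro (log2 -0.43 ± 0.18, edgeR adjusted p = 0.0505). This call was lost without Pro 2 or Sen 3. PSMF1, the inhibitor, had 116, 106 and 102 CPM of mRNA in Pro and 109, 109 and 105 CPM in Sen. In RPF it had 69.4, 65.3 and 87.6 CPM against 91.8, 35.2 and 77.8 CPM, with overlap in both measures and no call.

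PSME4 (chr2:54091206-54198130), the large activator that binds the core without ATP rose in mRNA and fell in TE. It had 132, 137 and 135 CPM of mRNA in Pro and 183, 194 and 192 CPM in Sen, a rise of 0.49 ± 0.07 on the log2 scale (edgeR adjusted p = 1.53e-06). The RPF level was 278, 157 and 153 CPM in Pro and 145, 70.3 and 109 CPM in Sen, all below Pro although the change did not pass (log2 -0.32 ± 0.18, edgeR adjusted p = 0.15, just above the threshold). TE was 1.12, 0.21 and 0.18 in Pro and -0.33, -1.30 and -0.81 in Sen, without overlap (change -0.81 ± 0.20, edgeR adjusted p = 0.0101). This TE difference lay within the SE of those of PSMG1 and PSMD12. Leaving out both shallow lysates gave -0.68 ± 0.17 (edgeR adjusted p = 0.0282). The TE call was lost with DESeq2 and without Sen 3.

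**Figure D3:**
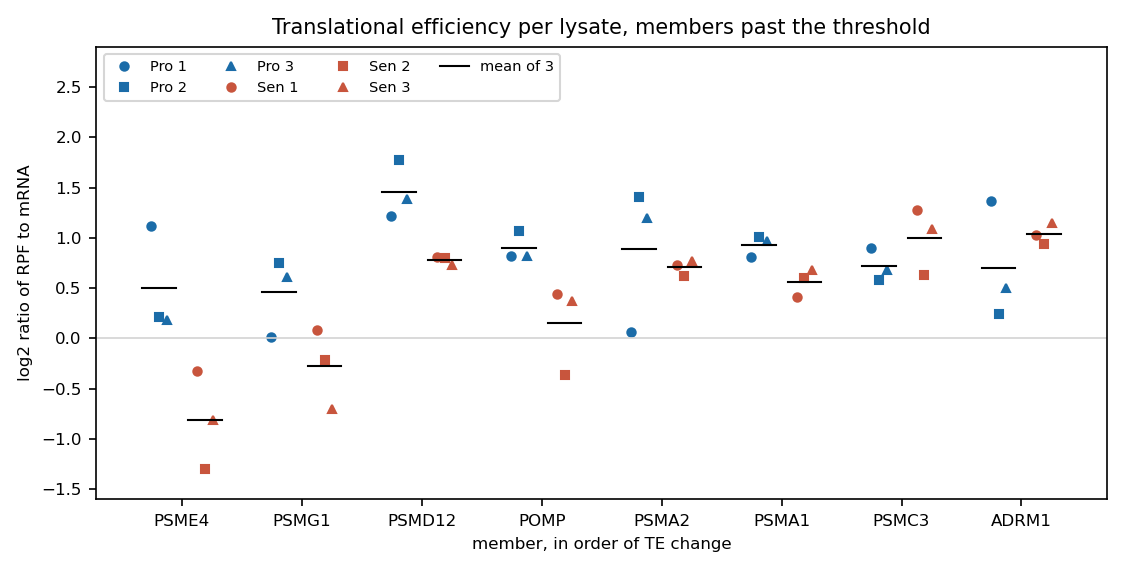
TE of each lysate on the log2 scale, with 0.5 added to RPF and mRNA counts (y axis), for the 8 members whose TE passed the threshold (x axis, ordered by change). Symbols are lysates and lines are means of 3; for PSME4, PSMD12, POMP and PSMA1 every Sen lysate lies below every Pro lysate, and the other 4 members overlap.

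Among the classes of members, assembly factors had the highest share of RPF calls, 83.3% against 54.4% of all genes tested. Of 6 tested members 4 were lower (PSMG1, PSMG2, POMP and PSMD5) and 1 was higher (PSMD10). The calls of PSMG2, PSMD5 and PSMD10 were lost with DESeq2. PSMG1 (chr21:40546695-40555414), which pairs with PSMG2 to guide alpha ring assembly, had 43.1, 40.9 and 45.1 CPM of mRNA in Pro and 31.3, 30.6 and 26.9 CPM in Sen (log2 -0.54 ± 0.09, edgeR adjusted p = 1.37e-05). RPF of this gene was 34.7, 68.3 and 68.6 CPM in Pro and 32.8, 17.6 and 15.6 CPM in Sen (log2 -1.29 ± 0.27, edgeR adjusted p = 5.9e-05). The states did not overlap in either, although Pro 1 and Sen 2 rest on 2 reads and 1 read. TE was 0.01, 0.75 and 0.61 in Pro and 0.08, -0.22 and -0.70 in Sen, with overlap (change -0.78 ± 0.30, edgeR adjusted p = 0.131), and this call was lost under 8 of 14 alternatives, among them leaving out Pro 2, Pro 3, Sen 1, Sen 2 or Sen 3. PSMG2 fell by 0.35 ± 0.09 in mRNA and fell by 0.44 ± 0.22 in RPF on the log2 scale, the latter lost without Pro 2, Pro 3, Sen 2 or Sen 3. The RPF call of PSMD5 was lost without Pro 2, Pro 3 or Sen 1. PSMG3 fell by 0.45 ± 0.13 in mRNA on that scale and had at most 16 RPF reads in a library.

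POMP (chr13:29233202-29253096), the maturation factor that is degraded once the core is complete, had 162, 151 and 147 CPM of mRNA in Pro and 150, 191 and 142 CPM in Sen (log2 0.07 ± 0.09, edgeR adjusted p = 0.497). Its RPF level was 278, 316 and 261 CPM in Pro and 202, 141 and 183 CPM in Sen, without overlap (log2 -0.57 ± 0.17, edgeR adjusted p = 0.00361). TE was 0.82, 1.07 and 0.82 in Pro and 0.44, -0.36 and 0.37 in Sen, all 3 below Pro (change -0.57 ± 0.18, edgeR adjusted p = 0.0544). The RPF call held under every alternative in which POMP was tested, that is all but the filter of at least 10 counts in every library. The TE call was lost with DESeq2 and without Pro 2, Pro 3, Sen 1 or Sen 3.

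PSMD10, also called gankyrin, a chaperone of the base, was the assembly factor with the highest mRNA fold change. It had 41.7, 44.1 and 42.3 CPM of mRNA in Pro and 49.4, 54.4 and 44.2 CPM in Sen (log2 0.21 ± 0.09, edgeR adjusted p = 0.0371). In RPF it had 52.1, 56.4 and 59 CPM in Pro and 85.8, 52.7 and 85.5 CPM in Sen, where Sen 2 with 3 reads fell among Pro (log2 0.54 ± 0.21, edgeR adjusted p = 0.0319). The mRNA call was lost without Sen 2, and the RPF call without Pro 3 or Sen 1. PSMD9 and PSMG4 rose in mRNA by 0.15 ± 0.08 and 0.19 ± 0.11 on the log2 scale. The call of PSMG4, at an edgeR adjusted p of 0.139, was lost when any 1 of the lysates was left out, and that of PSMD9 without Pro 2 or Sen 1.

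Levels of different genes were compared per kilobase of coding length, as RPF CPM. In proliferating cells the means of the 7 alpha ring members lay close together, from 317 (PSMA3) to 392 (PSMA4), with a coefficient of variation (CV) of 8.31%. Their SDs over the 3 Pro libraries ran from 22.7 (PSMA7) to 141 (PSMA2). Pro 1, with 8 reads for PSMA2 and 15 for PSMA7, counts in these means as much as the deeper libraries. In senescent cells they ranged from 224 (PSMA1) to 360 (PSMA7), with a CV of 19.6%. PSMA1 to PSMA4 made up the lower end, at 224 ± 19.4, 244 ± 15.3, 249 ± 85.3 and 261 ± 26.4 (SD, n = 3), and PSMA5 and PSMA7 the upper, at 356 ± 49.8 and 360 ± 26.8. PSMA6 lay between them at 268 ± 46.1, and neighbours in that order differed by less than the sum of their SDs. The beta ring was spread more widely and about equally in both states, from 332 to 666 in Pro (CV 26%) and from 282 to 546 in Sen (CV 28.3%). No test was run on these spreads.

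Per kilobase, 20S members had a median RPF level of 371 in Pro and 294 in Sen, above that of 19S members, 161 and 148, and of the immunoproteasome, 65.1 and 48.3. POMP had the highest level of all members in proliferating cells, at 673 ± 67.3 (SD, n = 3), and was at 414 ± 74.5 in senescent ones. PSMB1 was next at 666 ± 36.5 in Pro, within the spread of POMP. The lowest level was that of PSMG3 in Pro (34 ± 11.7) and of PSMB9 in Sen (8.33 ± 7.57), with PSME4, PSMG4 and PSMB9 in Pro and PSMG3 in Sen within the spread of these. PSMD2, at 214 ± 2.63 in Pro and 339 ± 25.7 in Sen, became the highest of the 19S members. Summed over a class, RPF CPM in Sen was 0.796 of that in Pro for the alpha ring, 0.883 for the beta ring, 1.02 for the 19S cap, 0.726 for the immunoproteasome and 0.725 for assembly factors. The corresponding mRNA ratios were 0.869, 1.01, 1.05, 0.716 and 0.993. These are ratios of plain means, in which the shallow Pro 1 and Sen 2 count as much as the deeper Ribo-seq libraries. The RPF sums of the states overlapped for the alpha ring, the beta ring, the 19S cap and the assembly factors. Those of the immunoproteasome nearly met, at 142 CPM in Pro 3 and 141 CPM in Sen 1.

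**Figure D4:**
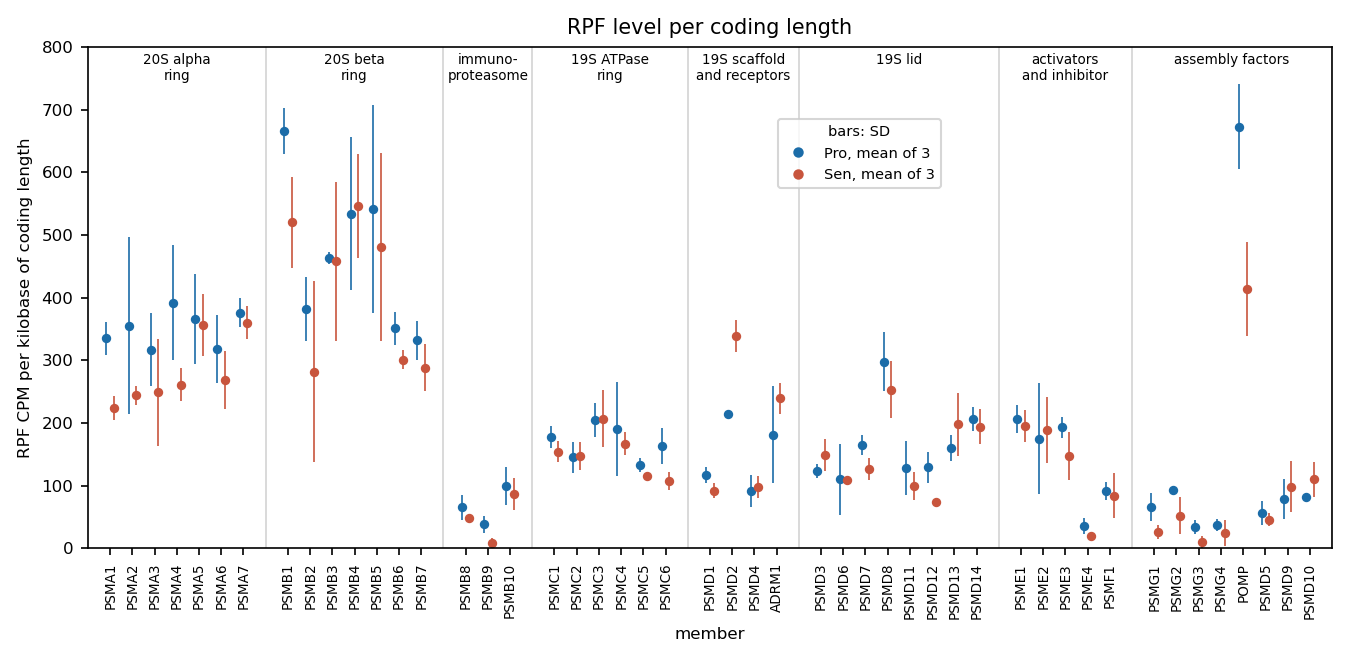
Mean RPF level in CPM per kilobase of coding length (y axis) of the 48 members by class (x axis) in Pro and Sen, with the SD over 3 libraries as bars. Alpha ring members sit between 317 and 392 in Pro and spread from 224 to 360 in Sen, and POMP is the highest member in Pro at 673.

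Other genes of the pathway were counted by list. For comparison, 73.6% of all genes tested were called in mRNA and 54.4% in RPF. Of 6 ubiquitin and E1 genes, none rose and 2 fell in mRNA (RPS27A and UBA6), while 2 rose and 3 fell in RPF. RPS27A, which encodes ubiquitin fused to a ribosomal protein, had the lowest mRNA fold change of this list (log2 -0.58 ± 0.09). Of 13 proteasome-associated genes, 4 rose and 3 fell in mRNA, and 1 rose and 6 fell in RPF. SEM1, the small lid subunit, fell by 0.43 ± 0.09 in mRNA and by 1.09 ± 0.25 in RPF on the log2 scale, and the deubiquitinase UCHL5, which docks on ADRM1, fell by 0.47 ± 0.09 and by 1.05 ± 0.27. AKIRIN2, which carries proteasomes into the nucleus, had the highest mRNA fold change of the list (log2 0.33 ± 0.09).

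Of 8 regulators of proteasome genes, 1 rose (NFE2L1) and 5 fell in mRNA (NFE2L2, DDI2, NGLY1, NFYA and NFYB), and 2 rose (NFE2L1 and VCP) and 2 fell (NFE2L2 and NFYB) among 7 tested in RPF. NFE2L1, the factor that induces proteasome genes when proteasome activity is short, had 323, 322 and 320 CPM of mRNA in Pro and 400, 382 and 409 CPM in Sen (log2 0.30 ± 0.07, edgeR adjusted p = 0.000475). NFE2L2, its relative in the oxidative stress response, had 193, 197 and 195 CPM in Pro and 111, 134 and 125 CPM in Sen (log2 -0.66 ± 0.07, edgeR adjusted p = 9.65e-08). NFYB, a subunit of the factor that binds the CCAAT box, was lowest (log2 -1.05 ± 0.09 in mRNA and -1.68 ± 0.33 in RPF). DDI2 and NGLY1, which activate the NFE2L1 protein by cleaving it and removing its sugars, fell by 0.29 ± 0.11 and 0.37 ± 0.10 in mRNA on the log2 scale.

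Class I antigen processing genes went against PSMB8 and PSMB9. Of 12 genes 7 rose and 2 fell in mRNA, and of 11 tested in RPF 7 rose and 1 fell. These are called shares of 75.0% and 72.7%, against 73.6% and 54.4% of all genes tested. TAP1 (chr6:32812986-32821593), a subunit of the peptide transporter, lies between PSMB8 and the RefSeq promoter window of PSMB9. It had 62.2, 55.7 and 51.8 CPM of mRNA in Pro and 99.1, 91.2 and 95.2 CPM in Sen (log2 0.75 ± 0.08, edgeR adjusted p = 2.88e-08). In RPF it rose by 0.95 ± 0.23 on the log2 scale. TAP2 (chr6:32789610-32806516), the other subunit, had 57.9, 56.9 and 56 CPM of mRNA in Pro and 99.1, 99.4 and 104 CPM in Sen (log2 0.83 ± 0.07 in mRNA and 1.18 ± 0.20 in RPF). HLA-B and HLA-C, which present the peptides, both rose by 0.86 ± 0.07 in mRNA on that scale and had the highest RPF changes beside TAP2 and IRF1, at 1.18 ± 0.16 and 1.25 ± 0.17. NLRC5, an activator of class I genes, had the lowest mRNA fold change (log2 -0.48 ± 0.11), and ERAP1, which trims peptides in the endoplasmic reticulum, the lowest RPF change (log2 -1.01 ± 0.22). PSMA8 and PSMB11, subunits of testis and thymus proteasomes, were listed at 0 in all libraries but for 1 in which PSMB11 had 0.0733 CPM of mRNA.

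**Figure D5:**
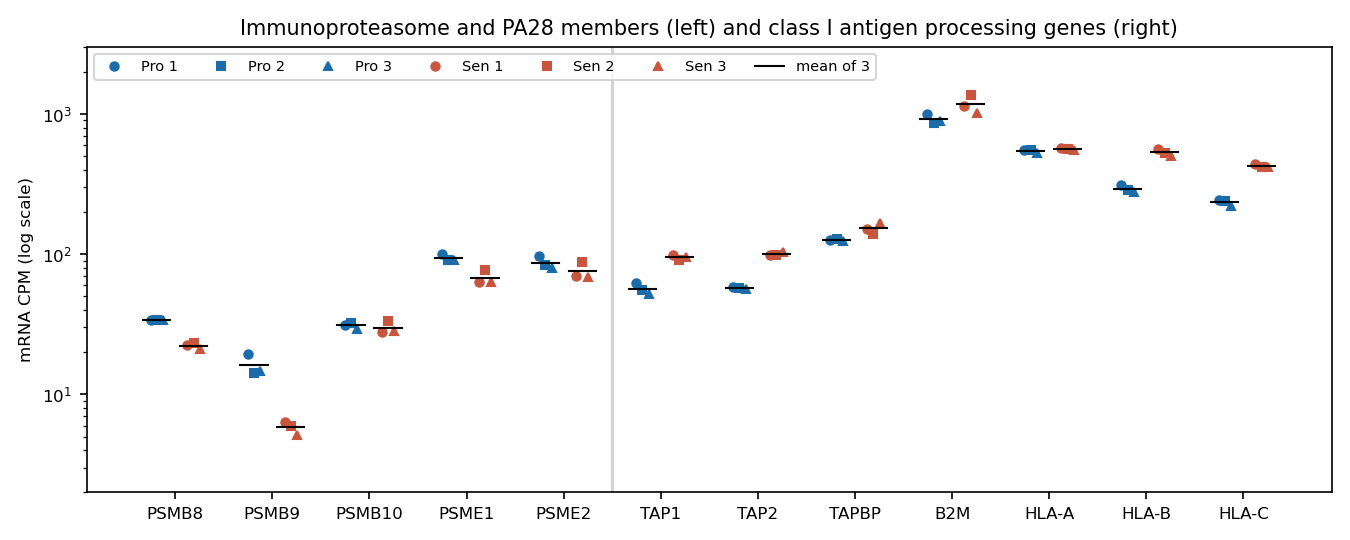
CPM of mRNA (y axis, log scale) of immunoproteasome and PA28 members (left of the grey line) and of class I antigen processing genes (right), by library, with lines at means of 3. PSMB8, PSMB9 and PSME1 are lower in every Sen library than in any Pro library, whereas TAP1, TAP2, TAPBP, B2M, HLA-B and HLA-C are higher.

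Annotated exons of 20 members overlap a gene on the opposite strand in GENCODE, among them PSMB8 with PSMB9 and with PSMB8-AS1, and the strand rule of the counting is not given in the sources used here. Fractional CDS values, as left by reads shared between places, occurred for 13 members in at least 1 Ribo-seq library and for 2 in at least 1 RNA-seq library. Of the 27 mRNA calls, 18 held under every alternative. Of the 24 RPF calls, 7 held under every alternative in which they were tested (PSMA1, PSMA2, PSMA4, PSMD2, PSMD12, PSMG1 and POMP). The filter of at least 10 counts in every library left PSMA2, PSMD12, PSMG1 and POMP untested in RPF. With RNA-seq CDS reads alone, the mRNA calls of PSMA1, PSMB1, PSMB4, PSMD6, PSME2, PSMD9 and PSMG4 were lost, and with library totals those of ADRM1, PSMD9, PSMD10 and PSMG4. Of the 8 TE calls none held under DESeq2, which called 0.375% of all genes in TE. RPF calls numbered 14 without Pro 2, 12 without Pro 3, 14 without Sen 1 and 16 without Sen 3. TE calls numbered 1, 2, 1 and 1 without these lysates, and 5 without Sen 2.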

How the data were processed

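Members and pathway lists were chosen with earlier results of these data known, and no list is independent evidence. The deposited tables give, per gene symbol, the authors' reads in the 5′ UTR, CDS, 3′ UTR and non-coding classes. The deposited unit is taken to be an unscaled expected count, since most values were whole and the rest simple fractions of a read, although the tests had been planned for plain counts. The submitters' processing notes name cutadapt 1.18, Bowtie 1.0.1, SAMtools 1.8 and DESeq2 1.22.2. The genome build, annotation, strand rule and handling of reads with several placements are not given in the sources used here. File names of the proliferating RNA-seq libraries hold a tag close to DMSO (a solvent), on which the labels are silent.

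RPF was the CDS count in Ribo-seq, and mRNA the sum of 5′ UTR, CDS and 3′ UTR counts in RNA-seq, rounded to whole numbers. Symbols with a CDS value in some library (16451) were filtered with filterByExpr. The test was edgeR's (4.0.16, R 4.3.3) quasi-likelihood test, two-sided, with TMM factors within a library type and Benjamini-Hochberg adjustment over all genes tested. The threshold of 0.15 follows the published methods. TE was the interaction of library type and state in all 12 libraries, with the lysate, from which the protocol took both libraries, as a block. Same-lysate deviations correlated at -0.0402 to 0.0514. The SE comes from the coefficient and its test statistic. Replicates are independent cultures by the protocol, and replicate counts differed by more than sampling noise. Simulated data with known changes were used to test the scripts.

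Per-library values are given for PSMB5 to PSMB10, the activators and inhibitor, the highest and lowest mRNA fold change of each class, and members past the TE threshold, and the lists are counted by direction with their highest and lowest member. Further genes (PSMD3, PSMD4, PSMD14, PSMG2, PSMG3, PSMG4, PSMD9, UCHL5, RPS27A, NFE2L2, DDI2, NGLY1, TAP1, TAP2) were named after their values were seen. Coding lengths are those of canonical GENCODE v44lift37 transcripts, and positions refer to GRCh37. Older symbols of ECPAS and SEM1 were matched by RefSeq synonyms. Alternatives were other factors, filters and thresholds, DESeq2 1.42.0, CDS reads alone as mRNA, blocks, and leaving out lysates. A reversal was counted where the sign changed and either value passed the threshold. Values of some listed genes and a promoter stretch are not reported here.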

Additional observations from a re-analysis of the deposited data

How the results depend on the processing

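The number of members with changed mRNA stayed between 21 and 28 under all alternatives run, against 27, and no call of any member reversed in mRNA, RPF or TE. RPF calls, 24 in the main test, fell to 14 of 20 members tested when at least 10 counts were asked of every library, of which 8 were among the 24. With DESeq2 they fell to 7 of 46 members tested. DESeq2 called 15.5% of all genes tested in RPF, against 54.4% in the main test. Leaving out 1 lysate at a time gave 12 to 32 RPF calls and 1 to 11 TE calls. TE calls, 8 in the main test, numbered 4 with a filter of at least 1 read, 3 at an adjusted p under 0.05, and 5 with TMM factors over genes kept in both library types, an alternative chosen after the data were seen. With DESeq2 they numbered 0, where 1 member had an unadjusted p under 0.05. Leaving out both shallow lysates gave 29 RPF calls and 10 TE calls. The fewer members tested bear on the stricter filter, and fewer samples on the single lysates; for the other changes the cause was not tested. Of the calls higher in Sen, the share was 25.9% in mRNA and 20.8% in RPF, and 10.7% and 10% with library totals.

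With the replicate number as a block, 26 members changed in mRNA and 15 in RPF (2 higher and 13 lower, 14 of them among the 24). The 10 RPF calls lost with this block were those of PSMB1, PSMB8, PSMC1, PSMD1, PSMD3, PSMD5, PSMD6, PSMD10, PSMD13 and PSME2, and PSME4 was gained. Without the lysate block in the TE test, 9 members passed. Proliferating and senescent samples share only a number: the correlation of deviations of same-numbered samples was 0.0213, -0.0865 and 0.107 in mRNA and 0.0192, 0.0193 and 0.0131 in RPF. In RPF the 6 pairs with different numbers lay lower, between -0.0236 and 0.00013, so each sample correlated best with its own number, by small margins. Deviations were taken from the mean of each state, so the pairs are not independent, and positive same-number values push the others down. In mRNA the pairs with different numbers ranged from -0.149 to 0.13, and same-numbered pairs lay among them. The RPF order therefore cannot tell whether a number marks a shared batch, and nothing in the labels says that it does. RPF counts of Pro 1 and Sen 2 limit what could be seen, since the median member had 10 and 9 reads there.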

Other observations

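Outside the coding sequence, PSMB2, a non-catalytic beta ring subunit, had more Ribo-seq reads in its 3′ UTR than most members. Proliferating libraries 1, 2 and 3 had 7.67, 9.33 and 4.33 of them, senescent libraries 1, 2 and 3 had 59, 27.7 and 55. As RPM of all reads assigned in the library, Pro held 48.4, 11.5 and 2.24, whereas Sen held 27.4, 75.7 and 51.5. The states overlap through the shallow Pro 1. Libraries also differed in how much of their Ribo-seq reads fell in coding sequence. Sen 2 (15%), Pro 1 (34.4%) and Sen 3 (54.7%) had the lowest coding shares and the highest PSMB2 values. Sen 1 (77.8%), Pro 2 (84.4%) and Pro 3 (88.8%) had the highest coding shares and the lowest PSMB2 values. Whether the states differ beyond this share was not tested. The 3′ UTR read values of Pro 1, 2 and 3 and of Sen 2 are fractional, as left by reads shared with other places. Those of Sen 1 and Sen 3 are whole, and no test was run.

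The proteasome members together took from 0.954 to 1% of CDS reads in the proliferating Ribo-seq libraries and from 0.796 to 0.838% in the senescent ones, without overlap between the states. These shares are of library totals, without TMM factors. With TMM factors the summed RPF of members was 9284, 10179 and 9773 CPM in Pro and 9394, 8034 and 9036 CPM in Sen, where Sen 1 lay above Pro 1 and the states overlapped (ratio of means 0.905).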
